A study of Mus musculus with 8 samples.

Results

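The forkhead transcription factors Foxo1, Foxo3 and Foxo4 and the sestrins Sesn1, Sesn2 and Sesn3 were followed in haematopoietic stem cells (HSCs) of young and old mice. The genes were chosen by symbol, and all 6 were found among the 19909 genes of the deposited contrast tables. All 8 libraries came from bone marrow HSCs of mice of the genotype Gfplc3/Gfplc3, taken at steady state. The mice carry a GFP-LC3 reporter: LC3 coats autophagosomes and is broken down with their cargo, so GFP is lost from cells with active autophagy, and the GFP signal stands for autophagy only through this reporter. The young group was 2 libraries of unfractionated HSCs from mice aged 8 to 12 weeks, tagged D11 and D12 in the table headers. The old groups came from 3 mice aged over 24 months, whose HSCs were divided by FACS into a dim and a bright fraction, each 33% of the cells. The dim fraction (GFPlo) is called AThi, for high autophagy (n = 3), and the bright fraction (GFPhi) ATlo, for low autophagy (n = 3). The tags O10, O11 and O12 are each shared by an AThi and an ATlo library, and the labels describe the fractions as paired. Because the young cells were not fractionated, age and gate cannot be told apart in a comparison of either old fraction with young.

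FoxO proteins are switched off by growth factor signalling: insulin and IGF receptors activate PI3K and AKT, AKT phosphorylates the FoxO proteins, and 14-3-3 proteins then hold them in the cytoplasm. In the nucleus they activate genes for cell cycle arrest, antioxidant defence, apoptosis and autophagy, and in HSCs they are known for maintaining quiescence and the self-renewing pool. Sestrins are stress-induced proteins that bind the GATOR2 complex and so restrain mTORC1, the kinase complex that blocks autophagy when amino acids are plentiful. Sesn1 and Sesn3 are known FoxO target genes, Sesn1 and Sesn2 are known p53 targets, and Sesn2 is also induced by ATF4 in the amino acid stress response. The activity of FoxO proteins is set largely by phosphorylation and location, which these mRNA measurements do not record.

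The members whose AThi libraries all lay above their ATlo libraries were Foxo1, Sesn1 and Sesn3, and their promoters are shown for that reason. RefSeq promoter windows of GRCm38.p6, from 250 bases before to 50 bases after a start site, were matched for 5 of the 6 members, and Foxo4 was not matched. The 250 bases upstream of each start are given 5′ to 3′ on the plus strand, which is the strand of each of these genes: for Sesn3 from chr9:14276051-14276300, for Foxo1 from chr3:52268087-52268336 and for the first Sesn1 start from chr10:41810324-41810573. Capitals mark ATTGG, the reverse complement of the CCAAT box, a common promoter element bound by the factor NF-Y.
Sesn3: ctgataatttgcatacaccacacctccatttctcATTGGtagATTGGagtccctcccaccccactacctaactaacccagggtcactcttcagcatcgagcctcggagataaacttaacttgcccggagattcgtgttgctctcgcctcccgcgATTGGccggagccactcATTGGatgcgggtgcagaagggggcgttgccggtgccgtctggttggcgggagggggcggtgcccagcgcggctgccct
Foxo1: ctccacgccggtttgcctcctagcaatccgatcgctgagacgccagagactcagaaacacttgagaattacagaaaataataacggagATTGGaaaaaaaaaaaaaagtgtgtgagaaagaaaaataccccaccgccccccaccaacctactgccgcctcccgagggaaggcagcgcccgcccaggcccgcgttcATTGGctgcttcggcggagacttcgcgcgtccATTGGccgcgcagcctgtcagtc
Sesn1: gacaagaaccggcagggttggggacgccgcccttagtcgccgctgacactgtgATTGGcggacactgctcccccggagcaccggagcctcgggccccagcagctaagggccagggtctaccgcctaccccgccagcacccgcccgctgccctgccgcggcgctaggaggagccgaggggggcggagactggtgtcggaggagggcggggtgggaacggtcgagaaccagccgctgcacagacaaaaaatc
The box was searched as CCAAT on both strands, and it was chosen after the sequences had been seen. Sesn3 held 4 matches upstream of its start, at -216, -208, -96 and -79, and Foxo1 held 3, at -162, -55 and -23. The Sesn1 window shown had 1 match, at -197, and the window of its other start had 1 at -91. Among 32851 RefSeq promoter windows, 0.840% held at least 4 upstream matches, 2.79% at least 3 and 33.8% at least 1. Of the other windows, that of Sesn2 held 2 upstream matches and that of Foxo3 held 0.

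The FoxO recognition core was searched as GTAAACA and as ATAAACA on both strands of the same windows. GTAAACA matched 1 member window, that of the first Sesn1 start, at position 23 downstream of the start, on the minus strand. The 30 bases around it, chr10:41810585-41810614 on the plus strand, are given with the reverse complement of the core in capitals.
Sesn1 site: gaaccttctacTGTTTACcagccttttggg
GTAAACA was present in 3.65% of the 32851 windows, and ATAAACA, which matched no member window, in 4.60%. These are matches of letters, and binding was not measured. In the GENCODE annotation of GRCm38, Sesn1 (ENSMUSG00000038332, chromosome 10, 41809935 to 41908424, plus strand) and Foxo3 (ENSMUSG00000048756, chromosome 10, 42181841 to 42276755, minus strand) lie 273 kb apart, with Armc2 the only gene of the tables between them. The other members lie on separate chromosomes, Foxo1 (ENSMUSG00000044167) on chromosome 3 at 52268336 to 52353221, Foxo4 (ENSMUSG00000042903) on chromosome X at 101254528 to 101260873, Sesn2 (ENSMUSG00000028893) on chromosome 4 at 132492032 to 132510501, and Sesn3 (ENSMUSG00000032009) on chromosome 9 at 14275067 to 14333101.

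Library totals ran from 34.0 to 61.3 M reads assigned to genes, and the ATlo libraries (54.5 to 61.3 M) were all deeper than the AThi libraries (34.0 to 45.8 M). All 10 markers fixed for HSCs, among them Procr, Slamf1, Kit and Hlf, had reads in each library. Their summed normalized counts (reads divided by 1 factor per library) were 123010 to 124267 in young, 122861 to 149782 in AThi and 93542 to 116362 in ATlo libraries. B cell markers stood high in the 3 libraries whose tags end in 12. The 7 B cell markers measured, among them Ighm, Cd79a and Ebf1, had summed normalized counts of 11065 in young D12, 24390 in AThi O12 and 10438 in ATlo O12, against 664 to 995 in the other 5. Xist, the RNA of the inactive X chromosome, was at 97743 in young D11, at 2747 to 5810 in the libraries tagged 12 and at most 171 in the rest. Results that rest on the libraries tagged 12 are given with and without them, and without them D11 is the lone young library and is assumed to vary like the other groups.

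Levels of the 6 genes were compared per kilobase of exon, as normalized counts divided by the summed exon length in GENCODE. Foxo3 was the most abundant on this scale, at 1363 ± 238 normalized counts per kb (SD over the 8 libraries), followed by Sesn1 at 1127 ± 218. These neighbours did not separate beyond their spread. Sesn3 (504 ± 136) and Foxo1 (341 ± 69.0) came next, and their ranges over the libraries also overlapped. Foxo4 (135 ± 23.2) and Sesn2 (61.5 ± 29.6) were lowest, and their ranges overlapped in turn. Within each library, however, Foxo4 lay above Sesn2, and Sesn3 lay above Foxo1 except in ATlo O12 (316 against 325). No library of Sesn3 reached the lowest of Sesn1, and none of Foxo4 reached the lowest of Foxo1. Within the FoxO family Foxo3 made up a median of 74.0% of the per-kb level, Foxo1 18.0% and Foxo4 7.34%. Within the sestrins Sesn1 made up 68.1%, Sesn3 28.8% and Sesn2 3.56%.

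**Figure D1:**
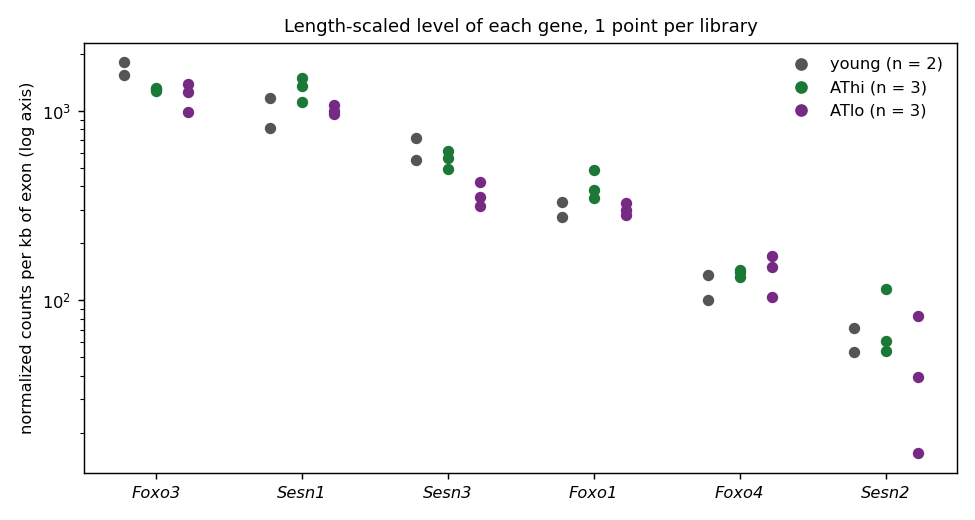
Normalized counts per kb of exon (log axis) for each member, with 1 point per library and young, AThi and ATlo libraries in separate colours. Foxo3 and Sesn1 lie highest and overlap, and Sesn2, the lowest, has the widest scatter.

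The most variable member between libraries was Sesn2, with a coefficient of variation of 48.1% over the 8 libraries and a 7.4-fold range, and the others varied by 17.1% to 27.1%. Sesn2 also had the fewest reads, 68 to 370 per library, against 332 to 764 for Foxo4 and at least 2251 for the other 4 members.

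**Figure D2:**
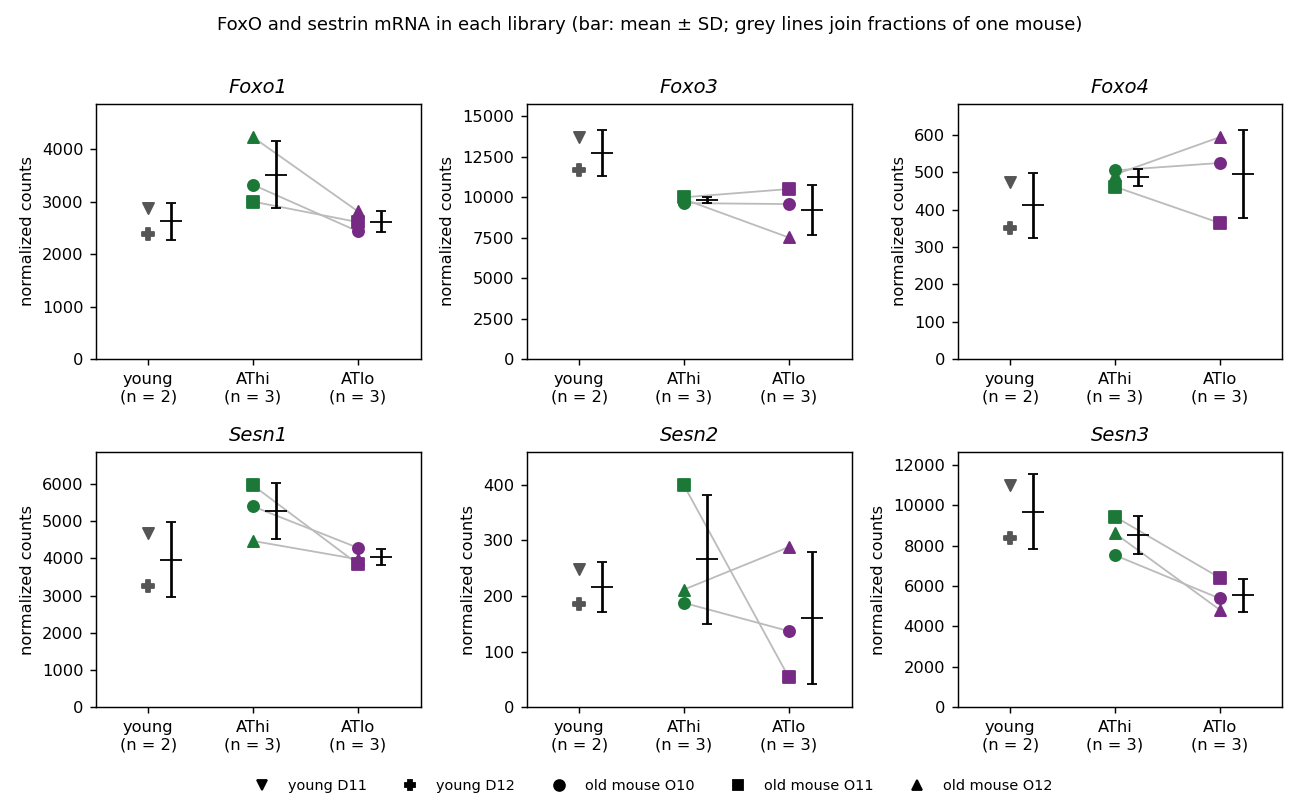
Normalized counts of each member in every library, with the group mean ± SD as bars beside the points (young n = 2, AThi n = 3, ATlo n = 3) and grey lines joining the fractions that share a tag. For Sesn3 the 3 ATlo points (4825 to 6411) lie below all other points, and for Foxo3 both young points lie above all old points.

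The paired sort asks whether old HSCs with high and low autophagy differ in these mRNAs. Sesn3 was higher in AThi than in ATlo and lower in ATlo than in young, and no other member passed the test in any of the 3 comparisons. Thus 1 of 6 members was called between AThi and ATlo, where 7.9% of 17908 genes tested had an adjusted p below 0.05 in the authors' deposited table. Against young, 0 of 6 were called for AThi (background 5.04%) and 1 of 6 for ATlo (background 4.34%) in the authors' deposited table. For AThi against young, 3 members had an unadjusted p below 0.05 in the authors' deposited table, and edgeR likewise called 0 with 3 at an unadjusted p below 0.05. The edgeR test called 0 of 6 members in the other comparisons too, against 1.41% of all genes for AThi and ATlo, 1.21% for AThi and young and 0.653% for ATlo and young. Without the 3 libraries tagged 12, DESeq2 called 0, 0 and 1 of 6 in the 3 comparisons, against 4.51%, 3.31% and 2.62% of genes. A lower level in such bulk libraries can mean fewer cells that express a gene or less RNA in each, and these cannot be told apart.

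Foxo1, a target of AKT with roles in cell cycle exit and metabolism, had normalized counts of 3320, 2999 and 4227 in AThi O10, O11 and O12, and 2434, 2610 and 2816 in the ATlo libraries of the same tags. Young libraries had 2868 (D11) and 2377 (D12). All AThi libraries lay above all ATlo libraries and above both young ones, and ATlo overlapped young. Between AThi and ATlo the log2 fold change in the authors' deposited table was 0.42 (SE 0.17, 95% interval 0.10 to 0.75), with an adjusted p of 0.10 and an unadjusted p of 0.011. With the mouse as a block, the DESeq2 refit on the 6 old libraries gave 0.41 with an adjusted p of 0.040, and edgeR with the block gave an adjusted p of 0.17. The highest Foxo1 value was that of AThi O12, the library with the highest B cell marker sum. Without the 3 libraries tagged 12 the log2 fold change was 0.32 with a DESeq2 adjusted p of 0.48, and without AThi O11 alone it was 0.53 with 0.0499. Against young, the authors' deposited table gave 0.42 for AThi (adjusted p 0.23, SE 0.19) and -0.00 for ATlo (SE 0.19, 95% interval -0.37 to 0.37).

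Foxo3, the FoxO member best known for HSC maintenance, was highest in young HSCs, with 13712 (D11) and 11714 (D12) normalized counts. AThi O10, O11 and O12 had 9637, 9998 and 9876, and the ATlo libraries had 9578, 10506 and 7514. Both young libraries lay above all 6 old libraries, a pattern that 4.93% of genes tested shared. The old fractions overlapped, and AThi against ATlo gave a log2 fold change of 0.10 in the authors' deposited table (95% interval -0.18 to 0.38, adjusted p 0.80). Against young, the authors' deposited table gave -0.37 for AThi (adjusted p 0.21, SE 0.16) and -0.47 for ATlo (adjusted p 0.068, SE 0.16), and neither passed the test. Without ATlo O11 the value for ATlo against young was -0.57 with a DESeq2 adjusted p of 0.026. That was the only 1 of 13 alternatives that called it, and values on leaving out each library ran from -0.57 to -0.34.

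Foxo4, an X-linked member at a low level here, had 474 and 351 normalized counts in the young libraries D11 and D12. Its values were 505, 461 and 494 in AThi O10, O11 and O12 and 525, 364 and 594 in the matching ATlo libraries. The 3 groups overlapped throughout. For AThi against ATlo the log2 fold change was -0.02 in the authors' deposited table, with a 95% interval of -0.55 to 0.51, and the values against young were 0.24 for AThi and 0.26 for ATlo (SE 0.30 for each).

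Sesn1, a sestrin induced by p53 and by FoxO factors, had 5401, 5968 and 4471 normalized counts in AThi O10, O11 and O12 and 4289, 3852 and 3980 in the ATlo libraries. Young libraries had 4675 (D11) and 3251 (D12) and overlapped both old fractions. AThi lay above ATlo without overlap, with a log2 fold change of 0.39 in the authors' deposited table (SE 0.17, 95% interval 0.05 to 0.72, adjusted p 0.16). With the mouse as a block, DESeq2 on the 6 old libraries gave 0.37 with an adjusted p of 0.039, and edgeR with the block gave an adjusted p of 0.20. Without the libraries tagged 12 the value was 0.48 with a DESeq2 adjusted p of 0.096. For AThi against young it was 0.41 (adjusted p 0.26, SE 0.19) in the authors' deposited table. On leaving out each library in turn it ran from 0.18 to 0.70, the highest without D11, where D12 is the lone young library. For ATlo against young the authors' deposited table gave 0.03 (SE 0.19).

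Sesn2, which senses leucine and is induced by p53 and ATF4, had 248 and 185 normalized counts in young D11 and D12. Its AThi libraries O10, O11 and O12 had 187, 399 and 211, and the ATlo libraries had 137, 54.0 and 288. The pair tagged O11 held both the highest and the lowest value, and the groups overlapped. In that pair AThi was above ATlo by 2.88 on the log2 scale, while the pair O12 went the other way at -0.44. The log2 fold change of AThi against ATlo was 0.74 in the authors' deposited table with a 95% interval of -0.39 to 1.86 (adjusted p 0.53), which holds both a fall and a rise.

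Sesn3, a FoxO-induced sestrin, had normalized counts of 7527, 9436 and 8610 in AThi O10, O11 and O12, and 5385, 6411 and 4825 in the ATlo libraries. Young libraries had 10985 (D11) and 8372 (D12). All 3 ATlo libraries lay below the other 5, a pattern held by 4.72% of genes tested, and AThi overlapped young. Sesn3 was higher in AThi than in ATlo by 0.62 on the log2 scale (SE 0.16, 95% interval 0.31 to 0.94, a 1.54-fold difference) in the authors' deposited table, with an adjusted p of 0.0034. Within mice the log2 ratio was 0.48, 0.56 and 0.84 for O10, O11 and O12. All 3 mice thus had more Sesn3 in their AThi fraction. Sesn3 was lower in ATlo than in young, at -0.80 (adjusted p 0.00057, SE 0.18) in the authors' deposited table. AThi did not pass against young, at -0.18 (95% interval -0.53 to 0.17, adjusted p 0.79) in the authors' deposited table.

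Both Sesn3 differences kept their direction under each alternative run, but their calls did not always hold. By the edgeR quasi-likelihood test the adjusted p was 0.090 for AThi against ATlo and 0.088 for ATlo against young. With the mouse as a block the adjusted p for AThi against ATlo was 2.5e-06 by DESeq2 and 0.052 by edgeR. Without the 3 libraries tagged 12, AThi against ATlo was 0.52 with a DESeq2 adjusted p of 0.068. ATlo against young was then -0.89, with D11 (Xist 97743) as the lone young library against ATlo O10 and O11 (Xist 171 and 32.5). Age and the Xist difference cannot be told apart in that fit. ATlo against young also rested on D11, the library with the highest Xist: without it the value was -0.59 with a DESeq2 adjusted p of 0.17. Leaving out any single library kept AThi against ATlo called, with a DESeq2 adjusted p between 0.0011 and 0.043.

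**Figure D3:**
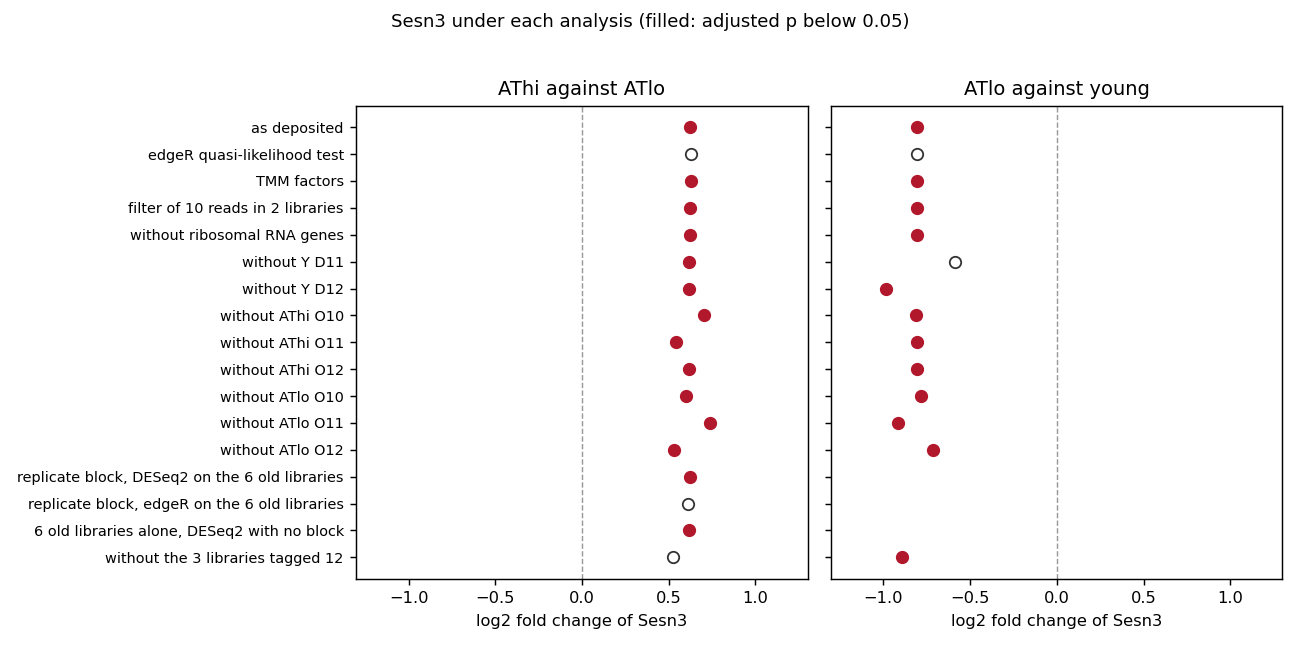
Log2 fold change of Sesn3 as deposited and under each alternative, for AThi against ATlo (left) and ATlo against young (right), with filled points where the adjusted p was below 0.05. All points for AThi against ATlo lie between 0.52 and 0.74, and the open ones there are both edgeR fits and the fit without the libraries tagged 12.

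Set side by side, AThi was above ATlo in all 3 mice for Foxo1, Sesn1 and Sesn3, a pattern of 21.7% of genes tested, in 2 of 3 mice for Foxo3 and Sesn2 and in 1 of 3 for Foxo4. The libraries of AThi and ATlo did not overlap for 3 of 6 members, all 3 with AThi higher, where 10.7% of genes tested were higher without overlap and 22.3% lay without overlap in either direction. With the mouse as a block, DESeq2 called these 3 members, and 10.6% of 18365 genes, while edgeR called 0 members and 1.59% of genes. Sesn3 made up 37.6% ± 1.45 (SD, n = 2) of the per-kb sestrin level in young, 28.6% ± 3.28 (SD, n = 3) in AThi and 25.5% ± 3.89 (SD, n = 3) in ATlo. Both young libraries (36.6% and 38.7%) lay above all 6 old libraries (22.6% to 32.3%). Within the FoxO family Foxo3 made up 80.0% of the per-kb level in young, 70.5% in AThi and 72.9% in ATlo. These shares were not tested.

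**Figure D4:**
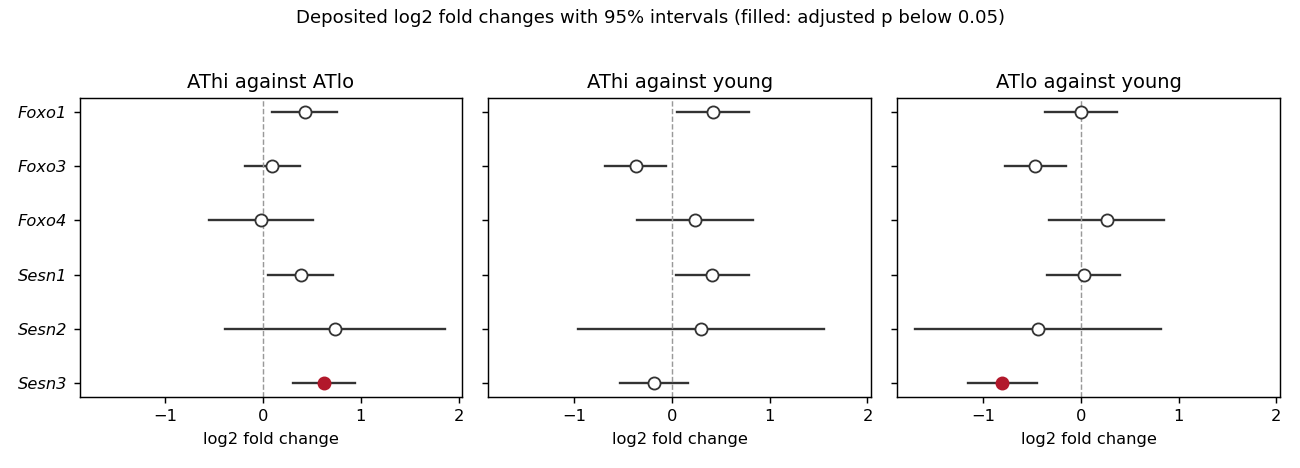
Log2 fold changes of the 6 members with 95% intervals, as deposited, for AThi against ATlo, AThi against young and ATlo against young, with filled points where the adjusted p was below 0.05. Sesn3 is filled in 2 panels, and the interval of Sesn2 is the widest in each.

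Genes that FoxO factors activate were counted in a list of 43, of which 36 were in the tables. Between AThi and ATlo, 5 of the 36 rose and 0 fell (13.9%, against 7.9% of all genes tested) in the authors' deposited table, with a median log2 fold change of 0.34 beside 0.02 over all genes. The list was drawn up with earlier results of these data known and is not independent evidence of its direction. S1pr1, a sphingosine-1-phosphate receptor that guides blood cells out of tissues, had 1610, 1681 and 1926 normalized counts in AThi O10, O11 and O12 and 735, 538 and 1001 in ATlo. These libraries did not overlap. S1pr1 rose by 1.20 (adjusted p 3.0e-05, SE 0.24) in the authors' deposited table. It was the only gene of the list called by edgeR (adjusted p 0.040), against 1.41% of all genes. Pik3ip1, an inhibitor of PI3K, had 4078, 5372 and 3670 in AThi against 2686, 2732 and 1596 in ATlo, again without overlap. It rose by 0.90 (adjusted p 0.0017, SE 0.22) in the authors' deposited table. Klf6, a zinc finger transcription factor, rose by 0.73 (adjusted p 0.0011, SE 0.17) in the authors' deposited table. Txnip, an inhibitor of thioredoxin and glucose uptake, and Rbl2, a pocket protein of quiescent cells, were the remaining genes called, named after their values were seen. They rose by 0.77 and 0.38 in the authors' deposited table, with SE of 0.20 and 0.13 and adjusted p of 0.0041 and 0.039. Txnip was not called without AThi O11 (DESeq2 adjusted p 0.053), and Rbl2 was lost on leaving out any library but ATlo O11 (DESeq2 adjusted p 0.063 to 0.22). With the mouse as a block DESeq2 called 10 genes of the list, all higher, and edgeR 4, against 10.6% and 1.59% of all genes.

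**Figure D5:**
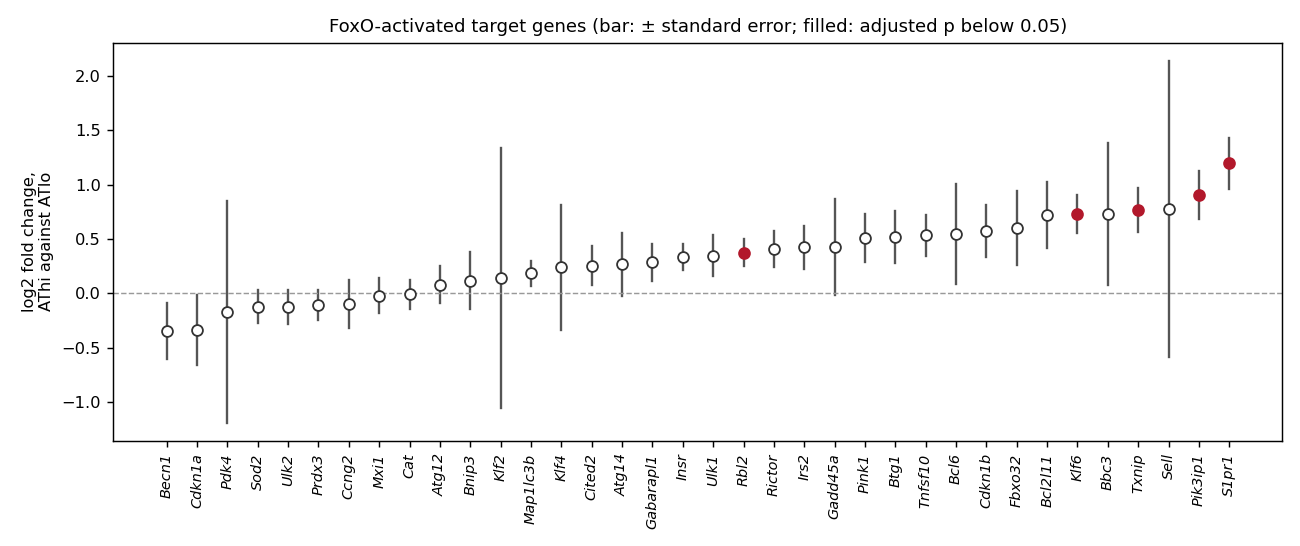
Log2 fold change of AThi against ATlo for the 36 measured FoxO-activated genes, with ± standard error as bars, in order of size. The 5 filled points (Rbl2, Klf6, Txnip, Pik3ip1 and S1pr1) have an adjusted p below 0.05 and all lie above 0.

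Against young, 2 of the 36 FoxO target genes rose in AThi and 0 fell, and in ATlo 1 rose and 2 fell, in the authors' deposited table (5.56% and 8.33%, against 5.04% and 4.34% of all genes tested). Cdkn1a, the cell cycle inhibitor p21, had 67.5 and 63.4 normalized counts in young and 319 to 607 in the 6 old libraries. It rose in both old fractions, by 2.40 in AThi and 2.74 in ATlo (SE 0.38 for each) in the authors' deposited table. Tnfsf10, the death ligand TRAIL, rose by 0.79 in AThi (adjusted p 0.0069, SE 0.21) in the authors' deposited table but not without D12, AThi O10 or AThi O11 (DESeq2 adjusted p 0.23, 0.052 and 0.058). Irs2, an adaptor of the insulin receptor, fell by 0.98 in ATlo (adjusted p 0.00069, SE 0.22) in the authors' deposited table, a call lost without D11 and without the libraries tagged 12 (DESeq2 adjusted p 0.13 and 0.11). Pik3ip1 fell by 0.94 in ATlo (adjusted p 0.0069, SE 0.25) in the authors' deposited table, a call lost without D11, without D12 and without the libraries tagged 12 (DESeq2 adjusted p 0.078, 0.14 and 0.16). The count for AThi against young was 4 without D11 and 1 without D12 or without AThi O10, and for ATlo against young it was 1 without D11.

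Of 40 measured kinases, 14-3-3 proteins and other controllers of FoxO proteins, 3 rose and 3 fell between AThi and ATlo in the authors' deposited table. That share of 15.0% stood against 7.9% of all genes tested, and the list median was 0.01. Those that rose were Pik3r1, the regulatory subunit of PI3K, by 0.61 (adjusted p 0.00013, SE 0.13), Igf1r, the IGF-1 receptor, by 0.56 (adjusted p 0.0021, SE 0.14), and the acetyltransferase Crebbp by 0.41 (adjusted p 0.027, SE 0.13) in the authors' deposited table. Pik3r1 had 25886, 27923 and 23292 normalized counts in AThi O10, O11 and O12 against 17251, 18772 and 14388 in ATlo, without overlap. Lower in AThi were the arginine methyltransferase Prmt1 (-0.79, SE 0.19), Skp2, the substrate receptor of a ubiquitin ligase (-0.66, SE 0.18), and the 14-3-3 protein Ywhah (-0.61, SE 0.17) in the authors' deposited table. By edgeR Pik3r1 alone was called (adjusted p 0.041), against 1.41% of all genes. Crebbp was not called without AThi O12, ATlo O10 or ATlo O11 (DESeq2 adjusted p 0.14 to 0.16), Ywhah without AThi O10, AThi O11 or ATlo O11 (0.058 to 0.079), and Skp2 without ATlo O12 (0.072). Without the libraries tagged 12, Prmt1, Skp2 and Crebbp were not called (DESeq2 adjusted p 0.20, 0.21 and 0.074). With the mouse as a block DESeq2 called 10 of the 40, 5 higher and 5 lower, against 10.6% of all genes. Against young, Skp2 fell by 1.01 in AThi (adjusted p 3.9e-05, SE 0.20) in the authors' deposited table. It was the only controller called there (2.50%, against 5.04% of all genes tested). In ATlo the calls (5.0%, against 4.34% of all genes tested) were Irs2, shared with the target list, and the AKT-related kinase Sgk3. Sgk3 fell by 0.92 (adjusted p 0.00011, SE 0.19) in the authors' deposited table. Without the libraries tagged 12 the DESeq2 adjusted p of Sgk3 was 0.081.

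The partners of the sestrins were GATOR, Rag, mTORC1 and AMPK genes, of which 45 were measured. Between AThi and ATlo 1 of 45 was called (2.22%, against 7.9% of all genes tested) in the authors' deposited table. That gene was Castor2, a relative of the arginine sensor Castor1, with 2064, 1408 and 1402 normalized counts in AThi O10, O11 and O12 and 961, 615 and 976 in ATlo. The libraries did not overlap. Castor2 rose by 0.93 (adjusted p 0.0047, SE 0.25) in the authors' deposited table, but was not called without AThi O10 (DESeq2 adjusted p 0.072) or by edgeR (0.099). Rragd, a Rag GTPase, was the 1 of 45 called in AThi against young (2.22%, against 5.04% of all genes tested). It rose there by 2.66 (adjusted p 0.018, SE 0.78) in the authors' deposited table. It had 24.9 and 29.6 normalized counts in young and 303, 159 and 56.5 in AThi, and it was not called by edgeR (adjusted p 0.19) or without D11, D12, AThi O10 or AThi O11 (DESeq2 adjusted p 0.069 to 0.25). For ATlo against young 0 of 45 were called by DESeq2 and 0 by edgeR, against 4.34% and 0.653% of all genes. By each tool 1 had an unadjusted p below 0.05.

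Of the genes of other known inducers of sestrins, p53 and its targets gave 2 of 27 higher between AThi and ATlo and 0 lower in the authors' deposited table, a share of 7.41% that is close to the 7.9% of all genes tested. They were Trp53inp1, a stress protein, at 0.61 (adjusted p 0.0066, SE 0.17), and the kinase Plk2, at 0.98 (adjusted p 0.022, SE 0.30), in the authors' deposited table. Trp53inp1 was not called without AThi O10 or ATlo O12 (DESeq2 adjusted p 0.065 and 0.052), Plk2 not without AThi O10, AThi O12, ATlo O11 or ATlo O12 (0.078 to 0.13), and neither without the libraries tagged 12 (0.14 and 0.11). ATF4 and its targets gave 0 of 20 higher and 3 lower (15.0%, against 7.9% of all genes tested) in the authors' deposited table, which were Psat1 of serine synthesis (-0.88, SE 0.17, adjusted p 1.2e-05), the amino acid transporter Slc7a5 (-1.10, SE 0.29) and the mitochondrial folate enzyme Mthfd2 (-1.90, SE 0.59). Mthfd2 was not called without AThi O11, ATlo O10 or ATlo O12 (DESeq2 adjusted p 0.081 to 0.23), and without the libraries tagged 12 neither it nor Slc7a5 was (0.33 and 0.077). Sesn2, the ATF4-induced sestrin, did not pass in any comparison. Against young, 2 of 27 genes of the p53 list were called in each old fraction (7.41%) in the authors' deposited table. The shares of all genes tested were 5.04% for AThi and 4.34% for ATlo. Cdkn1a, given above, was called in both. Plk2 in AThi (1.26, adjusted p 0.0075, SE 0.34) and Trp53inp1 in ATlo (-0.66, adjusted p 0.016, SE 0.19) were the others. By edgeR 1 of 27 was called in each, against 1.21% and 0.653% of all genes.

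Cell cycle genes split the same libraries as Sesn3 between AThi and ATlo, in the other direction. All 15 fixed markers were called lower in AThi than in ATlo (100%, against 7.9% of all genes tested) in the authors' deposited table. The list median was -1.24, and all 15 were lower without the libraries tagged 12 as well. Mki67, the proliferation antigen, had 14140, 14501 and 20394 normalized counts in AThi, 40270, 42789 and 47738 in ATlo and 16825 and 23152 in young. The ATlo libraries stood apart from the other 5 for Mki67, as they did for Sesn3. Mki67 was not called in AThi against young (-0.29, adjusted p 0.58), but most of its list was. In AThi 13 of the 15 markers were called lower than in young, and in ATlo 5 were called higher, in the authors' deposited table. The shares of all genes tested were 5.04% for AThi and 4.34% for ATlo. List medians against young were -0.92 in AThi and 0.31 in ATlo. Sesn3, by contrast, was called against young in ATlo only. Summed markers of megakaryocytes (7 of 8 in the tables) separated the fractions as well, at 5702 to 8141 in ATlo, 4182 to 5356 in AThi and 2453 to 2703 in young. Those of granulocytes (7 of 9 in the tables, without Elane and Mmp8) were at 6823 to 7143 in ATlo, 7510 to 9239 in AThi and 3738 to 4242 in young. Of the 7 genes in each of these sums, 0 were called between AThi and ATlo in the authors' deposited table. Within the megakaryocyte list Gp1ba (0.17) and Clec1b (0.52), named after their values were seen, went the other way. The summed HSC markers also separated the fractions, at 122861 to 149782 in AThi and 93542 to 116362 in ATlo. Of the 10 HSC markers, 3 were called higher in AThi and 0 lower (30.0%, against 7.9% of all genes tested) in the authors' deposited table. These were Procr (0.95, SE 0.18), Hlf (0.52, SE 0.12) and Mecom (0.59, SE 0.16), named after their values were seen. The part of cell cycle state, of HSC marker levels and of these other cell types in the Sesn3 result was not tested.

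The authors' deposited table of upstream regulators listed 726 regulators for AThi against ATlo, 62 given as activated and 88 as inhibited. FOXO1 and FOXO3 were among the 726, and FOXO4 and the sestrins were not. FOXO3 was given as activated, with a z-score of 2.61 and an overlap p of 2.45e-13 over 33 targets in the authors' deposited table. FOXO1 was given as inhibited, with a z-score of -2.558 and an overlap p of 5.43e-08 over 30 targets in the authors' deposited table. The sign given for FOXO1 is opposite to that of its own mRNA value, which did not pass the test. The targets behind both entries were mostly lower in AThi, with 22 of 29 matched genes for FOXO1 and 29 of 33 for FOXO3. The entries shared 9 targets, 30.0% of those of FOXO1 and 27.3% of those of FOXO3, among them the cell cycle genes BIRC5, CCNB1, CCNB2 and FOXM1. S1pr1 was among the 7 FOXO1 targets that were higher.

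For each member the 3 genes most like it were ranked by Pearson r of log2(normalized count + 1) over the 8 libraries among 11067 genes, as a description with no test. Sesn3 had the most neighbours, 35 genes over an r of 0.9, led by Zfp229 (0.98), Ccser2 (0.98) and Bcorl1 (0.97). Sesn1 had 27, led by Msmp, Ccpg1 and Fem1a (0.97 to 0.95), and Foxo3 had 16, led by Rfxap, Zfp85 and Rnf41 (0.98 to 0.94). No member was among the 3 genes most like another. Foxo1 had 13, led by Zfp182, Calml4 and Lancl3 (0.97 to 0.95), Foxo4 had 12, led by Ppp1r15b, Cactin and Ufm1 (0.94 to 0.93), and Sesn2 had 16, led by Kctd5, Zscan2 and Zfp783 (0.96 to 0.94). Among the members the highest r was 0.79, between Foxo3 and Sesn3, and the lowest was -0.60, between Foxo3 and Foxo4. The libraries share groups, tags and differences in depth, and these r values were not separated from them.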

How the data were processed

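RNA-seq was analysed from 8 HSC libraries of 2 young and 3 old mice. Reads were aligned with STAR to GRCm38, counted with featureCounts and tested with DESeq2, per the submitters' processing notes, and no version or annotation is named there. The signal per library is normalized counts, which the authors made by dividing reads by 1 factor per library, per the file headers and the values. Whole reads were recovered for 100% of values within 0.01 read. The authors deposited log2 fold changes, the Wald score, p-values and adjusted p-values for each contrast, and an activation score and p-value for each upstream regulator. A gene was called at an adjusted p below 0.05 in the deposited DESeq2 tables, which come from 1 fit of all 8 libraries. Refits on the recovered reads (R 4.3.3, DESeq2 1.42.0) gave the same 1414, 961 and 811 calls, and edgeR 4.0.16 was the other tool; both were tested on simulated data. Ribosomal RNA genes held 27.1% to 36.1% of reads. The p-values measure the spread between these libraries; the sort day of each library is not known here. Same-tagged AThi and ATlo libraries deviated from their group means together (r over 13611 genes of 0.21, 0.16 and 0.37, against -0.23 to 0.03 for other pairs), and with the labels' pairing the tag was taken as the mouse.

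Members and lists were chosen with earlier results of these data known. The text names all 6 members. From each list but the cell type markers it names up to 3 called genes per comparison and direction, by smallest adjusted p. For each member it names the 3 genes of highest r. These were drawn from genes whose mean over the libraries is at least 100, with no predicted, clone, mitochondrial or pseudogene symbol. Exceptions are named as such. Symbols came from the tables, exon lengths and positions from GENCODE, and promoters from RefSeq. Further markers of T and NK cells, granulocytes, monocytes, erythroid, megakaryocyte and stromal cells are given in the closing section. Alternatives were edgeR, TMM factors, a filter on low counts, no ribosomal RNA genes, each library left out, the mouse as a block and, chosen after seeing the data, the 3 libraries tagged 12 left out.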

Additional observations from a re-analysis of the deposited data

How the results depend on the processing

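Members called between AThi and ATlo numbered 1 as deposited, 0 by edgeR, 3 with the replicate block in DESeq2, 0 with the block in edgeR, 0 without the 3 libraries tagged 12, and 1 to 2 on leaving out each library. FoxO target genes called there numbered 5 as deposited, 1 by edgeR, 10 with the replicate block in DESeq2, and 4 to 6 on leaving out each library. For AThi against young, members called were 0 to 1 and target genes 1 to 4 on leaving out each library, with 1 target gene by edgeR. For ATlo against young, members called were 0 by edgeR and 0 to 2 on leaving out each library, and target genes were 1 by edgeR and 1 to 4 on leaving out each library. Signs reversed only for differences that no alternative called. Between AThi and ATlo, Foxo3 was -0.029 without ATlo O12 and -0.034 without the libraries tagged 12, with 0.20 the highest on leaving out a library, and Foxo4 was 0.014 without AThi O11, 0.022 without ATlo O10, 0.13 without ATlo O12 (lowest -0.20 without ATlo O11), 5.8e-05 with the replicate block in DESeq2 and 0.12 without the libraries tagged 12. For AThi against young, Sesn2 was -0.12 without AThi O11 and up to 0.53 without D11, and Sesn3 was 0.029 without D11 and -0.36 without D12. For ATlo against young, Foxo1 was 0.15, 0.052 and 0.0053 without D11, ATlo O10 and ATlo O11 and -0.13 without D12, Foxo4 was -0.086 without the libraries tagged 12, and Sesn1 was -0.21, -0.014 and -0.19 without D12, without ATlo O10 and without the libraries tagged 12, and 0.32 without D11. TMM factors, the filter on low counts and the removal of ribosomal RNA genes changed no call among the members. The cause of these changes was not tested. Sesn2 had the fewest reads of the members, down to 68 in ATlo O11, a library of 54.5 M reads.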

Other observations

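Of the ATF4 list, 3 of 20 genes (15.0%) rose in each old fraction against young in the authors' deposited table, where 5.04% of all genes tested were called for AThi and 4.34% for ATlo, and these were Nupr1, a stress-induced chromatin protein, the lipoprotein receptor Vldlr and Asns, the asparagine synthetase. In AThi they rose by 2.84, 1.69 and 0.69, and in ATlo by 2.15, 1.35 and 1.05, in the authors' deposited table. The list median was -0.12 in AThi and 0.17 in ATlo, beside 0.00 and 0.01 over all genes. By edgeR 2 of 20 were called in each comparison, against 1.21% and 0.653% of all genes. Asns in AThi was not called by edgeR (adjusted p 0.17). Nupr1 had 233 and 534 normalized counts in young and 1496 to 3201 in the old libraries, without overlap. The comparisons share the young libraries, and Sesn2, which ATF4 also induces, did not pass in either.

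Markers of other cell types were summed in each library as normalized counts. Monocyte markers ranged from 8942 to 11083 over all libraries, erythroid markers from 280 to 4902, T and NK cell markers from 443 to 951 and stromal and endothelial markers from 2315 to 4474. Of the 7 megakaryocyte genes measured, 5 were called higher in ATlo against young and 2 in AThi against young in the authors' deposited table, and of the 7 granulocyte genes 1 and 2. The shares of all genes tested were 4.34% for ATlo and 5.04% for AThi. Of 5 stromal and endothelial genes tested, 1 was called lower in each old fraction against young. Of 3 erythroid genes tested, 1 was called higher in ATlo and 0 in AThi. Of the monocyte and the T and NK cell genes, 0 were called against young.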
